A study of Mus musculus with 17 samples.

Results

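The genes described here encode enzymes, transporters and assembly factors of the peroxisome together with the core enzymes of mitochondrial fatty acid beta-oxidation. They are 32 mouse genes of 18193 with a probe set of their own on the array, and they were measured by all 66 probe sets annotated to exactly 1 of them. The list holds 9 enzymes of peroxisomal beta-oxidation, 2 peroxisomal membrane transporters, catalase, 11 peroxins, 8 genes of mitochondrial beta-oxidation and the regulator Ppara. The tissue is the cell population washed from the air spaces by bronchoalveolar lavage in mice of the inbred A/J strain. Urethane-treated mice (11 arrays), given a chemical carcinogen used to raise lung tumours in A/J animals, were compared with age-matched untreated mice of the same strain (6 arrays). The dose of urethane and the interval after it are not given in the sources used here, and both groups were A/J mice with no engineered allele named.

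Fatty acids are shortened stepwise from the carboxyl end by beta-oxidation, in which an acyl-CoA is oxidised, hydrated, oxidised again and cleaved by a thiolase to release acetyl-CoA. Mitochondria take up long-chain acyl groups through the carnitine shuttle and yield ATP, whereas peroxisomes handle very long, branched and dicarboxylic acids and produce hydrogen peroxide, which catalase removes. Peroxisomes are built by the peroxins, and alveolar macrophages, which take up and break down surfactant lipid, are a cell type in which lipid-regulated nuclear receptors of the PPAR family are known to act.

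Each array was made from 1 RNA sample, and the text names arrays by the number in their label, 1 of them (control 6/13, on scan day 1) with a pair of numbers. Whether control 6/13 pools material of more than 1 animal is not stated. All arrays had a trimmed mean signal of 500. Their 20th percentile signal lay between 9.49 and 66.2 and was highest on urethane 33, 35 and 36. Arrays fell into 2 scan days that were also 2 chip lots, with 5 urethane and 2 control arrays on day 1 and 6 urethane and 4 control arrays on day 2. The samples' source is given as lavage cells while their description speaks of lung tissue. The source was followed, and marker signals cannot settle the matter here, because no array of known lung tissue stands beside them. Alveolar macrophage markers summed to 226425 to 313359 on urethane arrays and 265677 to 303902 on control arrays, with 2 of 15 markers higher (Car4 and Fabp4) and 0 lower. Markers of alveolar type 2 and type 1 epithelium summed to 9675 to 15164 on urethane arrays and 10030 to 16876 on control arrays, with 1 of 10 lower (Napsa). Airway epithelium markers were lower for 6 of 15, and their summed signal was 10615 to 14558 on urethane arrays and 22964 to 43437 on control arrays, with no overlap. Neutrophil markers summed to 5775 to 64580 on urethane arrays and 4525 to 10720 on control arrays, with 1 of 8 higher (S100a8). The value of 64580 is that of urethane 34 alone, and the next urethane array was at 13467. T lymphocyte markers were higher for 3 of 11 (Cd3d, Il7r and Ms4a4b), with a median log2 difference of 0.69. Their summed signal was 8499 to 12899 on urethane arrays and 8985 to 15254 on control arrays. The brightest marker in that sum was Cd2, at a mean log2 signal of 13.34 in controls, and it differed by -0.78, whereas the other 10 differences were positive. Of 8 markers of monocytes and interstitial macrophages, 1 was lower (Cx3cr1, by -1.57 on the log2 scale). Their summed signal was 13692 to 21170 on urethane arrays. Among controls it was 40779, 36086 and 32881 on 33, 35 and 36, all of day 2, and 11489, 9425 and 11100 on 6/13, 14 and 37. C1qa, C1qb and C1qc differed by 1.20, 1.44 and 1.54 on day 1 and by -0.78, -0.62 and -0.94 on day 2. In such bulk samples fewer cells of a type and less RNA per cell cannot be told apart. Whether the numbered samples came from separate mice is not stated in the labels, so p-values reflect the spread between samples only, some of which may be technical.

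A minority of the genes moved, and they moved in both directions. Values are log2 of the MAS5 signal plus a pseudocount of 17.1, and a gene was called at a limma adjusted p under 0.05 over the 13390 genes tested. Of the 31 members tested, 1 was higher after urethane (Pecr), 2 were lower (Acaa1b and Acadm) and 28 were not called. These 3 calls are 9.68% of the members, beside 3.14% of all genes called in either direction, 2% called higher and 1.14% called lower. At an unadjusted p under 0.05 there were 9 of 31 members and 1963 of 13390 genes. The median log2 difference was -0.01 over the members and -0.03 over all genes tested. The signals of the 2 groups did not overlap for 2 members, Pecr and Acadl, and for 0.471% of all genes.

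With scan day as a block, 3 members were called higher (Pecr, Pex11a and Acadl) and 3 lower (Acaa1b, Acadm and Cpt1a), and 7.75% of all genes were called. In the fit of every probe set by itself, 1 of the 61 member probe sets kept was called, that of Acaa1b, beside 1.58% of all probe sets. Without urethane 33, 35 and 36, the arrays of highest 20th percentile signal, the call of Pecr held and those of Acaa1b and Acadm were lost, at log2 differences of -1.63 (adjusted p = 0.0566) and -0.26 (adjusted p = 0.0590).

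**Figure D1:**
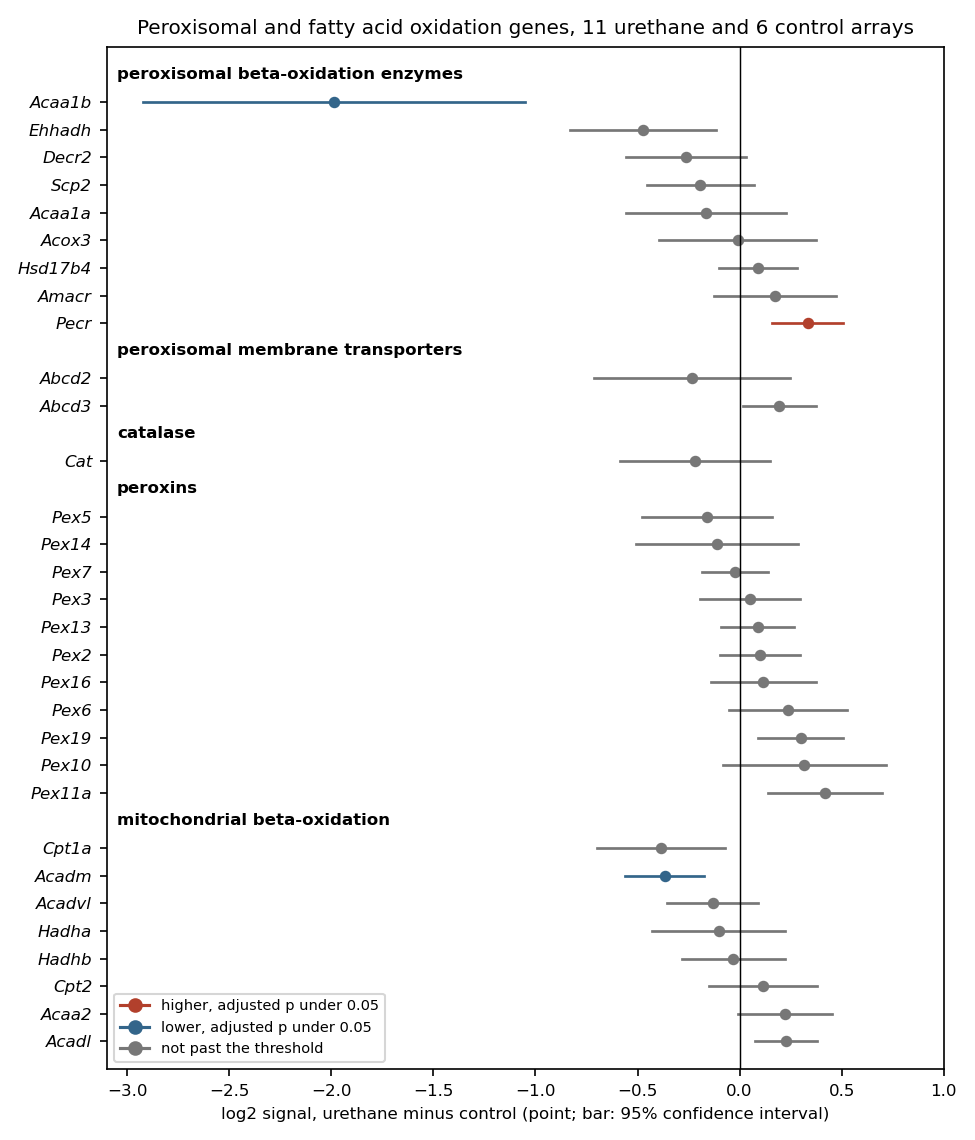
Difference in log2 signal, urethane minus control, for the 31 members tested, grouped by role. Points are differences over 11 urethane and 6 control arrays, bars are 95% confidence intervals, and colour marks the genes past an adjusted p of 0.05; Acaa1b lies at -1.99 and all other members between -0.47 and 0.42.

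The peroxisomal beta-oxidation enzymes held both the largest fall and the only called rise of the list. Of the 9 enzymes, 1 was higher, 1 was lower and 7 were not called, and their median log2 difference was -0.16. Acaa1b encodes a peroxisomal 3-ketoacyl-CoA thiolase, which catalyses the last, cleaving step, and which in rodents is a duplicate of Acaa1a. On scan day 1 its signal was 7539, 4052, 5572, 1998 and 4671 on urethane arrays 3, 5, 7, 8 and 9, against 12488 and 9757 on control arrays 6/13 and 14. On scan day 2 it was 1069, 1154, 1503, 1058, 801 and 907 on urethane arrays 31 to 36, against 9571, 9643, 2590 and 9460 on control arrays 33, 35, 36 and 37. Every urethane array of a day therefore lay below every control of that day, every urethane array of day 2 lay below every one of day 1, and over both days the groups overlapped only through control 36.

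The log2 signal of Acaa1b was 10.99 ± 1.17 (SD, n = 11) after urethane and 12.98 ± 0.81 (SD, n = 6) in controls, a difference of -1.99 (SE 0.45, 95% confidence interval -2.92 to -1.05, limma adjusted p = 0.0162). The mean urethane signal was 30.9% of the mean control signal. The difference was -1.33 on day 1 and -2.68 on day 2, and the test of the change between days gave an adjusted p of 0.220. Without control 36 it was -2.31 (limma adjusted p = 0.00283). Control 36 was also the control of highest neutrophil sum, 10720, and of lowest airway epithelium sum, 22964. Control 14 had an airway epithelium sum of 23053 and an Acaa1b signal of 9757, beside an Acaa1b signal of 2590 on control 36. The airway epithelium sum separated the groups. On urethane arrays it was 10615 to 13471 on day 1 and 10711 to 14558 on day 2, with overlap between days. Its called markers did not share 1 day pattern. The log2 difference of Epcam was -0.91 on day 1 and -2.20 on day 2, and that of Tppp3 -0.70 and -1.90. Cyp2f2 differed by -1.52 and -1.73, Bpifa1 by -2.17 and -1.97, Scgb1a1 by -1.29 and -1.04, and Scgb3a2 by -1.44 and -1.32. The neutrophil sum of urethane arrays was 5775 to 7605 on day 1 and 11125 to 64580 on day 2 (to 13467 without urethane 34), without overlap. S100a8 was the brightest marker in this sum, at a mean log2 signal of 12.58 on urethane arrays, ahead of Csf3r at 10.35. The markers did not share a sign between groups: 5 had a positive and 3 a negative log2 difference (Csf3r -0.28, Ltf -0.76 and Mmp9 -0.77). The T lymphocyte, B lymphocyte and eosinophil and mast cell sums of urethane arrays also did not overlap between days. The 20th percentile signal of these arrays did not overlap either, at 9.49 to 13.4 on day 1 and 14.4 to 66.2 on day 2. The part of any of these cell types, or of the signal level, in the Acaa1b difference was not tested.

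**Figure D2:**
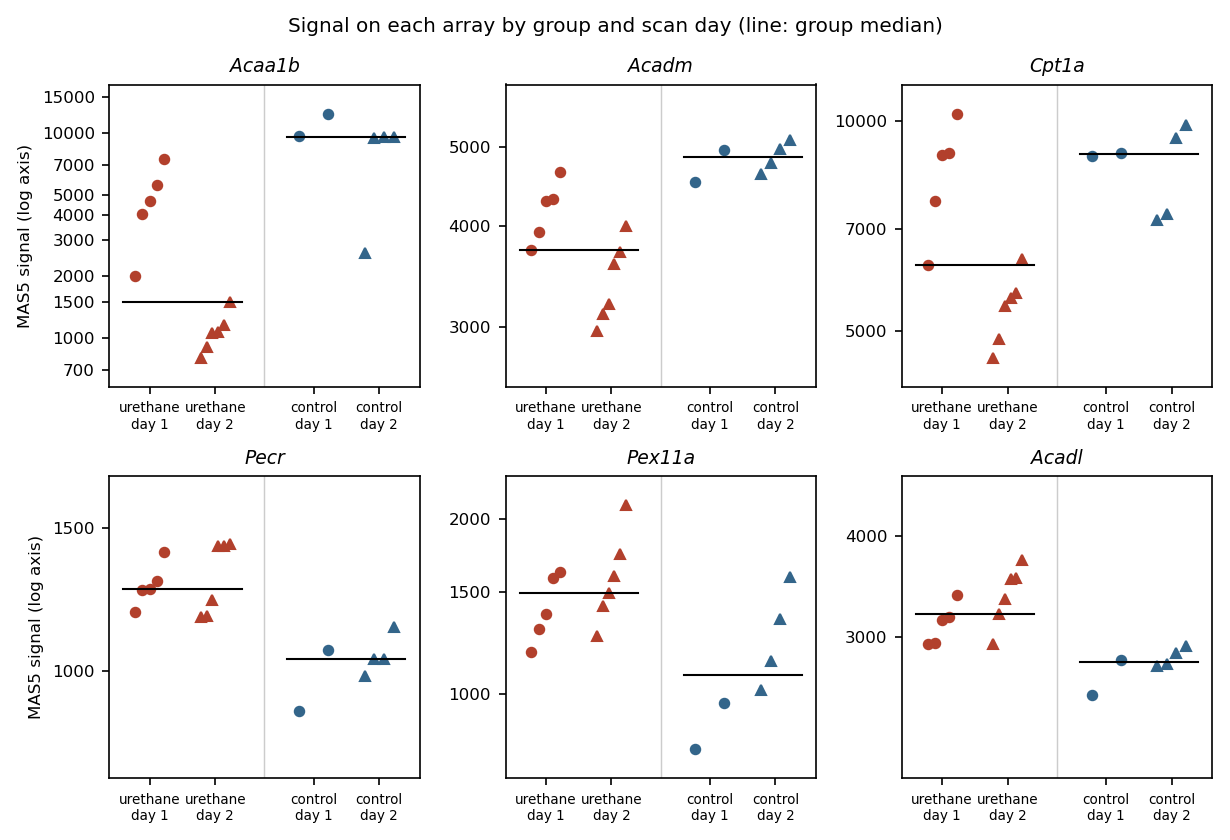
MAS5 signal on a log axis for 6 members, with urethane arrays left and control arrays right, circles for scan day 1, triangles for scan day 2 and a line at each group's median. Acaa1b, Acadm and Cpt1a sit lower on the urethane arrays of day 2, Pecr and Acadl show no overlap between groups, and Pex11a lies higher on most urethane arrays.

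Acaa1a, the other thiolase copy, was not called. Its brighter probe set read 190 to 546 on urethane arrays (median 423) and 350 to 684 on control arrays (median 453), so the groups overlapped. The log2 difference was -0.16 (SE 0.19, 95% confidence interval -0.56 to 0.23, limma adjusted p = 0.768), and its second probe set gave -0.11. Both Acaa1a probe sets are of the class that can cross-hybridise with similar sequences, so their assignment to this copy is uncertain. A further 2 probe sets are annotated to both copies and stand outside the gene fit. The first read 2161 to 3916 on urethane arrays (median 2921) and 3110 to 5182 on control arrays (median 4542), differing by -0.54 on the log2 scale (SE 0.14, limma adjusted p = 0.0578 over probe sets). The second read 3787 to 7527 on urethane arrays (median 5458) and 6032 to 9067 on control arrays (median 8055), a difference of -0.57 (SE 0.14, limma adjusted p = 0.0320 over probe sets). On each of these shared probe sets control 36 was the lowest control, as it was for Acaa1b, and the differences lay between those of the copies.

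**Figure D3:**
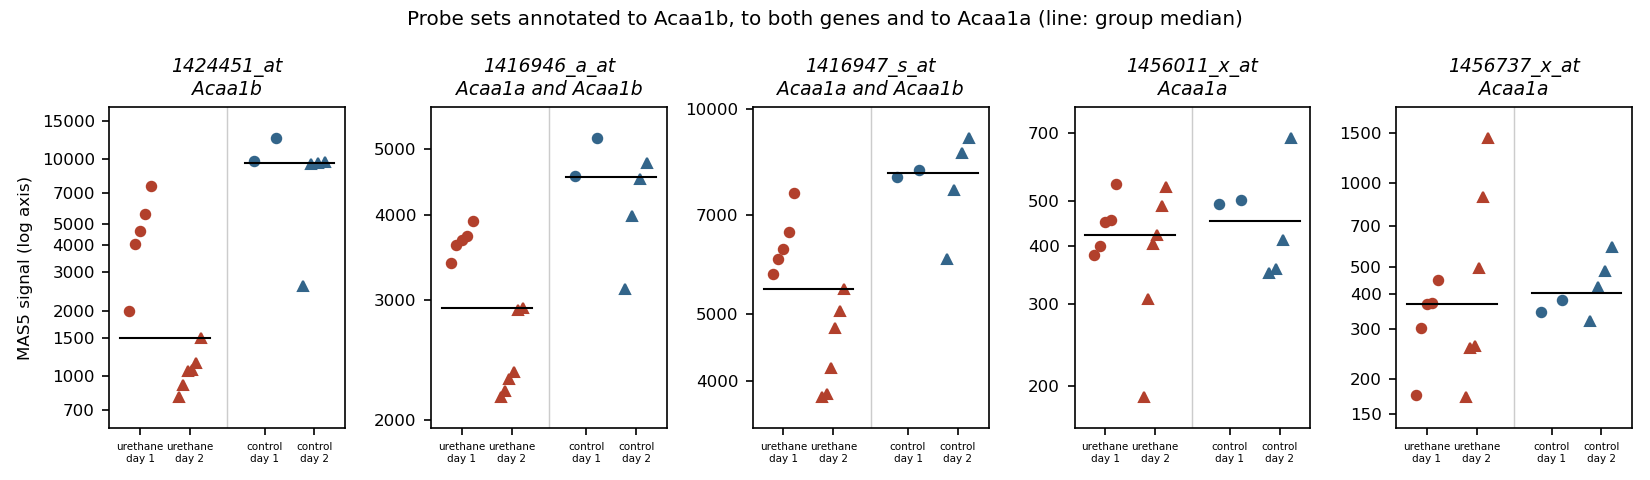
MAS5 signal on a log axis for the 5 probe sets of the thiolase copies, from left to right 1 annotated to Acaa1b, 2 annotated to both copies and 2 annotated to Acaa1a, with urethane arrays left and control arrays right in each panel and lines at group medians. The log2 difference is -1.99 on the first, -0.54 and -0.57 on the shared pair, and -0.16 and -0.11 on the last pair.

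The copies lie on mouse chromosome 9, Acaa1b at chr9:119148043-119157093 and Acaa1a at chr9:119341028-119350296 (build GRCm38.p6), 183934 bases apart. Their promoter windows, 250 bases before to 50 bases after the annotated start as RefSeq gives them for this build, are printed because 1 copy was called and the other was not. Capitals mark CCAAT on either strand (CCAAT or ATTGG), a common promoter element. The Acaa1b window starts from the outer bound of the gene as given above, whereas that of Acaa1a starts from a site 266 bases inside its bounds, so the windows are not placed alike. The windows are chr9:119157044-119157343 on the minus strand for Acaa1b and chr9:119341044-119341343 on the plus strand for Acaa1a, both written 5′ to 3′ along the gene.
Acaa1b: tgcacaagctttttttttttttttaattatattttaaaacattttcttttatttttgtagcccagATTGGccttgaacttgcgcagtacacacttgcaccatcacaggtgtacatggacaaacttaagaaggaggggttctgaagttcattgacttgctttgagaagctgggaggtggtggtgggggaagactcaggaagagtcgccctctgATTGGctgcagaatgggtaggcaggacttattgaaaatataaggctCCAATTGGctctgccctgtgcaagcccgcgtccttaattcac
Acaa1a: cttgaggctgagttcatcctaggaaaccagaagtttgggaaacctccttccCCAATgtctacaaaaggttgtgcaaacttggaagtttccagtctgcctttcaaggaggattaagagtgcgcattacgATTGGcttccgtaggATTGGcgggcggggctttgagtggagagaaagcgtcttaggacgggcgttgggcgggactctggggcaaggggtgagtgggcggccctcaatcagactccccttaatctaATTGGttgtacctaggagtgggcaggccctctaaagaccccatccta
Each window held 4 matches of CCAAT, of which a pair overlaps in Acaa1b, and 37.4% of all 32851 promoter windows and 10 of the 30 member windows held at least 1. Neither held AGGTCA, the element that PPAR and its partner RXR read as a direct repeat. The Acaa1b window was 43.7% G and C with 4 CG dinucleotides, the lowest of the 30 member windows on both, whereas Acaa1a had 53.3% and 10. The median over all windows was 52.7% with 7 CG dinucleotides. These letters describe the windows and were tied to no measured binding.

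Pecr was higher. It encodes the peroxisomal trans-2-enoyl-CoA reductase, which saturates the double bond of enoyl-CoA substrates and works in the opposite direction to the oxidation step. On scan day 1 its signal was 1402, 1292, 1261, 1260 and 1184 on urethane arrays 3, 5, 7, 8 and 9, against 1062 and 894 on control arrays 6/13 and 14. On scan day 2 it was 1428, 1436, 1425, 1165, 1224 and 1170 on urethane arrays 31 to 36, against 1133, 1034, 1036 and 985 on control arrays 33, 35, 36 and 37. The lowest urethane array lay above the highest control array. The log2 signal was 10.35 ± 0.12 (SD, n = 11) after urethane and 10.02 ± 0.11 (SD, n = 6) in controls, a difference of 0.33 (SE 0.08, 95% confidence interval 0.16 to 0.51, limma adjusted p = 0.0305), with 0.39 on day 1 and 0.31 on day 2. A second, dim probe set gave 0.17. The call was lost without control 14, control 35, control 37 or urethane 32, each left out alone, with adjusted p up to 0.0918 and differences of 0.30 to 0.34.

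The other enzymes of the pathway were not called. Ehhadh, the bifunctional enzyme of hydration and dehydrogenation, read 437 to 976 on urethane arrays (median 665) and 660 to 1437 on control arrays (median 1035). Of 11 urethane arrays 10 lay below the control mean, the groups overlapped, and the log2 difference of -0.47 (SE 0.17) had a limma adjusted p of 0.165. Decr2, a dienoyl-CoA reductase for unsaturated chains, differed by -0.26 (limma adjusted p = 0.413), and Scp2, whose long form is a thiolase for branched chains, differed by -0.19 (limma adjusted p = 0.536). Acox3, an acyl-CoA oxidase of branched chains, differed by -0.01, Hsd17b4, the second bifunctional enzyme, by 0.09, and Amacr, the racemase that prepares 2-methyl acids, by 0.17. The intervals of these 3 reached -0.39 to 0.38 for Acox3, -0.10 to 0.28 for Hsd17b4 and -0.13 to 0.47 for Amacr.

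Of the membrane transporters, Abcd3, which carries branched and dicarboxylic acyl groups, read 1905 to 2843 on urethane arrays (median 2289) and 1829 to 2234 on control arrays (median 1994). It lay above the control mean on 10 of 11 urethane arrays, and differed by 0.20 on the log2 scale (SE 0.09, limma adjusted p = 0.277). Abcd2, a carrier of very long chains, differed by -0.23 (SE 0.23, limma adjusted p = 0.722), and its 4 probe sets gave differences of -0.23 to 0.11. Catalase (Cat) read 2550 to 6979 on urethane arrays (median 5178) and 4324 to 8665 on control arrays (median 5911), a difference of -0.22 (SE 0.18, limma adjusted p = 0.635), and its second probe set gave -0.20.

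The peroxins, which import proteins into the peroxisome and divide it, showed small differences, mostly positive on the probe set that stood for each gene. Of the 11 peroxins, 8 had a positive and 3 a negative log2 difference, beside 6112 of 13390 genes positive. The median was 0.10, and 0 were called by limma, with 2 at an unadjusted p under 0.05. The probe sets of Pex2, Pex3, Pex6 and Pex19 disagreed in sign, and those of Pex5, Pex11a, Pex13 and Pex16 did not. Of the 19 members with more than 1 kept probe set, 9 had 1 sign on all of them. Pex11a, which acts in peroxisome growth and division, read 1181 to 2114 on urethane arrays (median 1491) and 802 to 1589 on control arrays (median 1076). Each of the 11 urethane arrays exceeded the control mean, although control 33 and control 35, at 1346 and 1589, lay within the urethane range. The difference was 0.42 (SE 0.13, limma adjusted p = 0.103), and with scan day as a block 0.45 (limma adjusted p = 0.0189). Its dimmer probe set read 452 to 1214 on urethane arrays (median 703) and 248 to 653 on control arrays (median 413), a difference of 0.84 (SE 0.22, limma adjusted p = 0.0523 over probe sets). The gene passed the threshold in 5 of 34 other settings, with differences of 0.14 to 0.84 over all of them. Of the 17 that left out 1 array, 1 passed, without control 35 (0.52, limma adjusted p = 0.0450), while without control 6/13 the difference was 0.33 (limma adjusted p = 0.255).

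Pex19, the carrier of newly made membrane proteins, read 689 to 952 on urethane arrays (median 823) and 620 to 758 on control arrays (median 630), with a difference of 0.30 on the log2 scale (SE 0.10, limma adjusted p = 0.127). Each of the 11 urethane arrays exceeded the control mean, but its other 2 probe sets gave -0.14 and 0.18. Its partners in membrane assembly, Pex3 and Pex16, differed by 0.05 and 0.12. Of the import receptors Pex5 differed by -0.16 and Pex7 by -0.02, and of their docking proteins Pex13 differed by 0.09 and Pex14 by -0.11. Of the export machinery, the ubiquitin ligase subunits Pex2 and Pex10 differed by 0.10 and 0.32 and the ATPase Pex6 by 0.24. The limma adjusted p of these 9 peroxins ran from 0.461 for Pex6 to 0.943 for Pex7. Pex6 was measured by 5 probe sets, which gave differences of -0.33 to 0.31.

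Mitochondrial beta-oxidation also held 1 call, the fall of Acadm, and the acyl-CoA dehydrogenases did not share a sign. Of the 8 genes, 3 had a positive and 5 a negative log2 difference, with a median of -0.07. Acadm encodes the medium-chain acyl-CoA dehydrogenase. On scan day 1 its signal was 4654, 4320, 4296, 3733 and 3927 on urethane arrays 3, 5, 7, 8 and 9, against 4530 and 4962 on control arrays 6/13 and 14. On scan day 2 it was 3584, 4000, 2964, 3710, 3110 and 3205 on urethane arrays 31 to 36, against 5102, 4976, 4628 and 4775 on control arrays 33, 35, 36 and 37. Of the urethane arrays only urethane 3 reached into the control range, and the 3 lowest, 33, 35 and 36, were those of highest 20th percentile signal.

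The log2 signal of Acadm was 11.87 ± 0.21 (SD, n = 11) after urethane and 12.24 ± 0.07 (SD, n = 6) in controls, a difference of -0.37 (SE 0.09, 95% confidence interval -0.56 to -0.17, limma adjusted p = 0.0311). It was -0.18 on day 1 and -0.51 on day 2, and -0.26 without urethane 33, 35 and 36 (limma adjusted p = 0.0590). The call was also lost without any 1 of control 14, 33, 35 or 37 or urethane 35 or 36, with limma adjusted p up to 0.0858, while the difference stayed between -0.40 and -0.33 over all 17 arrays left out in turn. With the Gapdh and actin 3′ to 5′ signal ratios as covariates it was -0.26 (limma adjusted p = 0.142).

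Acadl, the long-chain acyl-CoA dehydrogenase, read 2942 to 3738 on urethane arrays (median 3208) and 2547 to 2924 on control arrays (median 2796), without overlap. It differed by 0.23 on the log2 scale (SE 0.07, limma adjusted p = 0.108), with 0.22 on day 1 and 0.25 on day 2, and it passed the threshold when scan day was a block (limma adjusted p = 0.0297). Acadvl, the very long-chain enzyme, differed by -0.13 (limma adjusted p = 0.643), so the 3 dehydrogenases of this step had differences of -0.37, 0.23 and -0.13. Whether these differ from each other was not tested.

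Cpt1a, the outer-membrane carnitine palmitoyltransferase that controls entry of long chains, read 4586 to 10229 on urethane arrays (median 6212) and 7218 to 9848 on control arrays (median 8947). On scan day 2 all 6 urethane arrays, at 4586 to 6344, lay below all 4 controls, at 7218 to 9848, whereas on day 1 the urethane arrays ran from 6212 to 10229, around the controls at 8901 and 8993. The difference was -0.39 (SE 0.15, limma adjusted p = 0.204), with -0.11 on day 1 and -0.64 on day 2, and -0.44 with scan day as a block (limma adjusted p = 0.0178). With the Gapdh and actin signal ratios as covariates the difference was -0.18 (limma adjusted p = 0.505). Without the 3 arrays of highest 20th percentile signal it was -0.24 (limma adjusted p = 0.330). The other 2 probe sets of Cpt1a gave -0.21 and 0.0020. They had the opposite order of days, at -0.77 and -0.94 on day 1 and 0.05 and 0.46 on day 2. The fall on day 2 was therefore seen on the brightest probe set only. Cpt2, the inner-membrane partner, differed by 0.12, with 0.53 on day 1 and -0.11 on day 2. A second, dimmer Cpt2 probe set gave -0.30, with -2.02 on day 1 and 0.74 on day 2, the reverse order of days.

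Hadha and Hadhb, the subunits of the trifunctional enzyme, are neighbours on chromosome 5 (chr5:30119423-30154980 and chr5:30155253-30184593, build GRCm38.p6), with 272 bases between them and opposite strands. Their log2 differences were -0.10 (SE 0.16) and -0.03 (SE 0.12), with limma adjusted p of 0.838 and 0.951. Acaa2, the mitochondrial thiolase, read 2517 to 3869 on urethane arrays (median 3558) and 2122 to 3191 on control arrays (median 2867), a difference of 0.22 (SE 0.11, limma adjusted p = 0.363). Its 3 probe sets gave 0.22 to 0.29, so this thiolase and Acaa1b had differences of opposite sign.

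The promoter windows of the other called genes are printed for comparison with the thiolase copies, by the same rule and build, with capitals for CCAAT or AGGTCA on either strand. Acadm (chr3:153944594-153944893, minus strand) has AGGTCA, read here as TGACCT, at -249 from the start, and Pecr (chr1:72284272-72284571, minus strand) has CCAAT.
Acadm: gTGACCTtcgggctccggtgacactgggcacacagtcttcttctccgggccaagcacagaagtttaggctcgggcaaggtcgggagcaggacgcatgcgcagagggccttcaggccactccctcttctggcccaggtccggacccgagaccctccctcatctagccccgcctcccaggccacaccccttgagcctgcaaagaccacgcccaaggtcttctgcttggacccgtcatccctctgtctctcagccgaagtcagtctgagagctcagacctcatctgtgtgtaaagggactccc
Pecr: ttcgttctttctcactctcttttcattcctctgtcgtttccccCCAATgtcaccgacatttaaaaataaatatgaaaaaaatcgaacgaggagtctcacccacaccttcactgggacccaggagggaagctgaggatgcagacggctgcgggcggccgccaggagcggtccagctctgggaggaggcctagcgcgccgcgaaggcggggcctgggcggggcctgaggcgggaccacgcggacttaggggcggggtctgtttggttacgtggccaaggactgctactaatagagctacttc
AGGTCA stood in 5 of the 30 member windows (Scp2, Cat, Cpt1a, Acadm and Acadvl), or 16.7%, beside 5340 of 32851 windows, or 16.3%, so its share among the members was near that of all promoters. The repeat AGGTCANAGGTCA, searched on both strands, stood in 0 member windows and in 13 of all windows. With up to 2 mismatches it stood in 1 member window, that of Cat, and in 3.86% of all windows. The 30 windows belong to 26 members.

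Ppara, a nuclear receptor of the PPAR family, was not tested. None of its 3 probe sets passed the filter, which asks for a signal above the 40th percentile of the array on at least 6 arrays. Its brightest probe set read 4.10 to 71.4 on urethane arrays (median 35.2) and 8 to 130 on control arrays (median 66.5), and exceeded that percentile on 1 urethane and 3 control arrays. The other 2 exceeded it on 2 arrays or fewer, so no direction is given for this gene. The remaining 2 probe sets not kept belong to Abcd3 and Acadl, each of which had another that was kept.

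The sign of the difference on the 2 scan days was compared for each member. Of 31 members, 12 (38.7%) had differences of opposite sign, beside 51.2% of all genes tested. Of these members 11 were positive on day 1 and negative on day 2, and 1, Pex2, was the reverse. On day 1, 22 members had a positive difference, and on day 2, 12. The median of the mitochondrial members was 0.14 on day 1 and -0.21 on day 2, that of the peroxisomal members 0.16 and -0.03, and that of all genes tested -0.04 and 0.02. The mean log2 signal of the mitochondrial members was 11.81 to 12.06 on the 5 urethane arrays of day 1 and 11.47 to 11.81 on the 6 of day 2, beside 11.77 to 11.79 and 11.63 to 12.03 on the control arrays. The term for a change of the urethane effect between days passed the threshold for 0 members (lowest limma adjusted p = 0.164, for Cpt2) and for 11 of 13390 genes. Day 1 rests on 2 control arrays, and scan day cannot be told apart from chip lot.

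**Figure D4:**
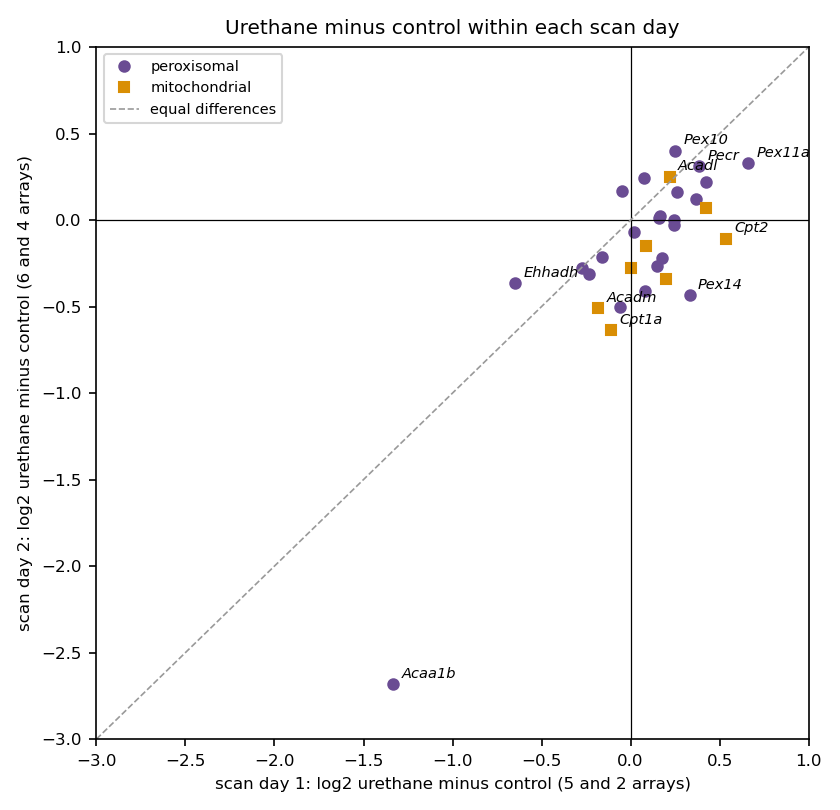
Log2 difference, urethane minus control, on scan day 1 (x axis, 5 urethane and 2 control arrays) and on scan day 2 (y axis, 6 urethane and 4 control arrays), with circles for peroxisomal and squares for mitochondrial members and a dashed line where the days are equal. Acaa1b lies at -1.33 and -2.68, and 11 members lie right of 0 and below 0.

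Peroxisomal and mitochondrial members had medians close to 0. Of 23 peroxisomal members 12 had a positive and 11 a negative difference, with a median of 0.05, against -0.07 for the 8 mitochondrial members. The mean of the peroxisomal members minus that of the mitochondrial members was -1.66 to -1.36 on urethane arrays (median -1.56) and -1.71 to -1.42 on control arrays (median -1.51) on the log2 scale, and the groups overlapped. Without Acaa1b the medians were in the other order, at -1.59 on urethane arrays and -1.64 on control arrays, again with overlap.

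Other genes of these pathways were read from the same fit. Of 39 further peroxisomal genes tested, 5 had an unadjusted p under 0.05, beside 14.7% of all genes. By limma adjusted p 1 was higher and 0 were lower, a share of 2.56%, beside 3.14% of all genes. The one that rose was Ephx2, the soluble epoxide hydrolase, which read 107 to 591 on urethane arrays (median 233) and 31.3 to 166 on control arrays (median 72.0), which is 1.39 on the log2 scale (SE 0.35, limma adjusted p = 0.0308). It exceeded the 40th percentile on 11 of 11 urethane arrays and 3 of 6 control arrays, so it passed the filter through the urethane group and its size rests on dim control signals. Of 20 further genes of mitochondrial fatty acid oxidation 0 were called by limma, with 1 at an unadjusted p under 0.05. Of 24 genes of the PPAR family, its partners and its targets, 0 were higher and 2 were lower, or 8.33%, beside 3.14% of all genes. The 2 were Cidec, a lipid droplet protein, by -1.62 (SE 0.40, limma adjusted p = 0.0274), and Fabp1, a fatty acid carrier, by -1.06 (SE 0.28, limma adjusted p = 0.0410). At an unadjusted p under 0.05 there were 10 of these 24, beside 14.7% of all genes, and with scan day as a block 3 were called higher and 6 lower, beside 7.75% of all genes. The highest difference of this list was that of Cyp4a14, 1.60 (SE 0.45, limma adjusted p = 0.0522). It exceeded the 40th percentile on 10 urethane arrays and 1 control array, so it too passed the filter through the urethane group. Fabp4, counted here among the macrophage markers and not in this list, was higher by 1.03 (SE 0.16, limma adjusted p = 0.000896). The difference of Cidec was -1.09 on day 1 and -2.22 on day 2, and that of Acaa1b, the only member whose fall was larger, was -1.33 and -2.68.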

How the data were processed

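Probe set intensity values of 17 Affymetrix Mouse430_2 arrays were deposited on a linear scale, made with MAS5 (version not given) per the submitters' processing notes. The authors had scaled all arrays to a trimmed mean of 500, as the values show, and this scaling was not changed. Only scan day and chip lot were read from the scan files. Of 45101 probe sets, 34945 had 1 gene symbol in the platform annotation, 932 had several and 9160 had none, beside 64 control probe sets. A probe set was kept when its signal passed the array's 40th percentile on 6 or more arrays, and the one of highest mean stood for its gene. Log2 of signal plus 17.1 (the 20th percentile signal of the median array, which understates folds of dim genes) was tested, urethane against control, with limma 3.58.1 in R 4.3.3 (lmFit, eBayes with a variance trend, two-sided, Benjamini-Hochberg over 13390 genes or 29546 probe sets, threshold 0.05). The script was tested on simulated data. All 32 members are named, with values array by array for those called, and of the other pathway genes those called and Cyp4a14. The members and lists were chosen with earlier results of these data known. All 32 gene IDs matched the RefSeq table, and promoter windows came from RefSeq (GRCm38.p6). Figures used matplotlib 3.10.9 in Python 3.11.15. Alternatives numbered 34, of which 17 each omitted an array, 14 were planned changes and 3 were added after seeing the data (RNA ratios as covariates, leaving out the 3 arrays of highest 20th percentile signal, and the fit of all probe sets). Urethane and control arrays shared the label numbers 33, 35 and 36, but the deviations of same-numbered arrays correlated at -0.04, -0.18 and -0.13, so the numbers were not taken as pairs. The labels state no pairing, and 3 correlations cannot exclude one. The number of arrays limits the precision.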

Additional observations from a re-analysis of the deposited data

Results flagged for a closer look

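Within the 6 control arrays, 2 members had a value far from the others. Acaa1b was at a log2 signal of 11.35 on control 36, and the next control was at 13.21, so the gap took 0.823 of the range of the control group. Acox3 was at 9.40 on control 37, and the next control was at 10.39, a gap of 0.832 of the range. Both gaps pass Dixon's 95% critical value for 6 samples, which chance alone passes in about 1 in 20 groups, and 31 members were examined. The urethane group, of 11 arrays, was not examined this way.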

How the results depend on the processing

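Over 34 other settings Acaa1b kept its sign and passed the threshold in 31 (adjusted p from 3.13e-05 to 0.0573), Pecr in 23 and Acadm in 21, also with their sign kept. The 3 settings without an Acaa1b call were no variance trend (0.0547) and a robust variance trend (0.0573), both with a difference of -1.99, and leaving out urethane 33, 35 and 36 (0.0566, difference -1.63). Leaving out 1 array at a time gave 0 to 1 members higher and 1 to 2 lower, and 218 to 634 genes called in all. Members called higher numbered 0 with median centring, the probe set of largest variance, day 2 alone and the fit of all probe sets, and 3 with scan day as a block, day 1 alone and RNA ratios as covariates. Members called lower numbered 1 with median centring, the probe set of largest variance, a robust variance trend, day 1 alone and the fit of all probe sets, and 0 with no variance trend and without the 3 arrays. Median centring moved the median of all genes to 0.15, and with it the peroxisomal median to 0.23 and the mitochondrial one to 0.11. The peroxisomal median was -0.022 with the mean of all probe sets or the probe set of largest variance, 0.16 on day 1, -0.028 on day 2, 0.15 with RNA ratios and 0.12 without the 3 arrays, and the mitochondrial median was 0.14 on day 1, -0.21 on day 2 and 0.13 with RNA ratios. The label number as a replicate block gave 0 members higher and 10 lower, 3024 genes in all, medians of -0.10 and -0.42 and a peroxisomal minus mitochondrial median of 0.32. Its differences rest on the numbers that both groups share, 33, 35 and 36, all on scan day 2, and whether these are pairs is not known. The all-gene count was 421 and ran from 180 with median centring to 3024 with that block. The causes were not tested. Signals near background limit Ppara, the second Pecr probe set, Ephx2 and Cyp4a14.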
